A study of Meriones unguiculatus and Mus musculus with 2 samples.

Results

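The S100A genes encode small proteins with calcium-binding EF-hand loops, and several act as alarmins, signals of tissue damage and inflammation. The 10 genes described here were taken by gene symbol from a list (S100a3, S100a4, S100a6, S100a7a, S100a8, S100a9, S100a10, S100a11, S100a14 and S100a16) among the 41214 mouse genes of the deposited table. The rule uses names only and no expression value, but the list was chosen with earlier results of these data known. It leaves out other S100A genes of the table (S100a1, S100a2, S100a5 and S100a13).

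Wounded skin was profiled by RNA sequencing at day 3 after wounding in a Mongolian gerbil (Meriones unguiculatus) and in a mouse of the outbred ICR stock, each species being represented by 1 library. Both animals were wounded, the tissue is labelled as wounded dermis, and the labels used here give no age, sex, genotype or unwounded control. Values were in FPKM, read fragments per unit of transcript length and of library size, which allows levels of different genes to be set side by side within a library. Without replicates there is no error, no test and no p-value for any difference below, and depth is unknown.

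S100 proteins work mostly as dimers. Calcium opens a surface through which they bind other proteins. Inside the cell their partners include annexins and the cytoskeleton. Released S100A8 and S100A9, which pair as calprotectin, bind the receptors Tlr4 and Ager (the receptor for advanced glycation end products) and withhold zinc and manganese from microbes. Neutrophils and monocytes carry large amounts of calprotectin, and keratinocytes at a wound margin also make it. S100A10, whose loops have lost calcium binding, is held in its active shape and bound to annexin A2.

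The loop of the C-terminal EF-hand is given here for each gene, since it is a calcium-binding site of these proteins and shows how the genes differ within it. The bases are those of GENCODE M21 mouse transcripts, on build GRCm38, given 5′ to 3′ on the coding strand, and each stretch of 36 bases lies in a single coding exon. Capitals mark the codons at loop positions 1, 3, 5 and 12, which usually supply calcium ligands (aspartate or asparagine at the first 3 of these positions, glutamate at position 12).
S100a3 (chr3:90602236-90602271, plus strand): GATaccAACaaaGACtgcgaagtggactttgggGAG
S100a4 (chr3:90605785-90605820, plus strand): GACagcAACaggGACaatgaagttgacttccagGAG
S100a6 (chr3:90614233-90614268, plus strand): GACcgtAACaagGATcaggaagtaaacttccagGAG
S100a7a (chr3:90657695-90657730, plus strand): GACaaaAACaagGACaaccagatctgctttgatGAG
S100a8 (chr3:90669872-90669907, plus strand): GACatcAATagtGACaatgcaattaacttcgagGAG
S100a9 (chr3:90692851-90692886, minus strand): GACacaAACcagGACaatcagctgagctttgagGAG
S100a10 (chr3:93564288-93564323, plus strand): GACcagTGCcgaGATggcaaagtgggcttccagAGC
S100a11 (chr3:93526037-93526072, plus strand): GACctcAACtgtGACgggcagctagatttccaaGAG
S100a14 (chr3:90528114-90528149, plus strand): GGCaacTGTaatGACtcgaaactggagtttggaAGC
S100a16 (chr3:90542410-90542445, plus strand): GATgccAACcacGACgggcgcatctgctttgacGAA

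In 8 of the 10 genes all 4 marked codons encode the usual residues, whereas S100a10 keeps 2 of them and S100a14 keeps 1. Their proteins run from 89 to 124 residues. Over the 45 pairs, residue identity ranged from 17.3% to 49.4% (median 27.7%), the most alike pair being S100a4 and S100a6, and identity of coding bases from 51.4% to 70.7%. S100a8 and S100a9, whose products pair, shared 31.5% of residues. All 10 genes lie on mouse chromosome 3, and in the table's coordinates their spans do not overlap.

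In the ICR wound the calprotectin genes stood above the rest of the family. S100a9 was at 4550 FPKM, rank 7 among the 40993 genes with an ICR value, and S100a8 was at 3242 FPKM, rank 17. S100a9 was thus 1.40 times S100a8, and together they made up 63.7% of the 12238 FPKM summed over the 10 genes and 1.26% of all FPKM listed for ICR. Whether a level in a bulk library reflects more cells of a type or more RNA per cell cannot be told apart.

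The next 6 genes lay within a narrower range. S100a6, calcyclin, which binds the ubiquitin ligase partner Cacybp and several annexins, was at 1388 FPKM. S100a4, a binder of nonmuscle myosin often used as a fibroblast gene although leukocytes also express it, was at 856 FPKM. S100a16, a broadly expressed member, was at 620 FPKM, and S100a11, a binder of annexin A1 found in keratinocytes and many other cells, was at 598 FPKM. S100a14, an epithelial member, was at 554 FPKM, and S100a10, the annexin A2 partner, was at 422 FPKM. These 6 genes ranked between 53 and 211 in ICR. With a single library, the order of S100a16, S100a11 and S100a14, which lay close together, cannot be given an error.

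The remaining pair was low. S100a7a, the mouse relative of human psoriasin, was at 7.22 FPKM in ICR, and S100a3, a protein of the hair cuticle, was at 1.31 FPKM. For comparison, the median protein-coding gene with an ICR value was at 2.24 FPKM, so S100a3 lay below it and the other 9 genes above it.

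**Figure D1:**
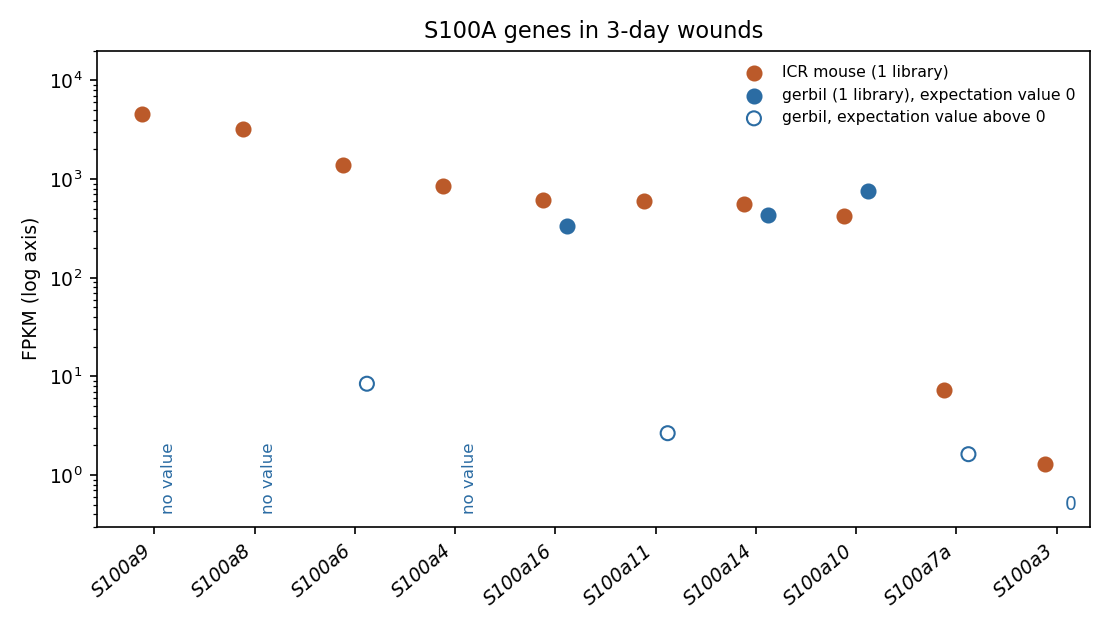
Levels of the 10 S100A genes in FPKM (log axis) in the ICR library and the gerbil library, 1 point per gene and library, ordered by the ICR level. Filled gerbil points had a match with an expectation value of 0 and open ones a weaker match; S100a9, S100a8 and S100a4 had no gerbil value and S100a3 was listed at 0.

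Gerbil values were listed for 7 of the 10 genes. The header puts them under expression measured after assembly, each with an expectation value, and they were read as the levels of sequences assembled from gerbil reads and then matched to mouse. The expectation value states how often a match as good would arise by accident, so that a larger one marks a weaker match. A gerbil value was listed for 51.4% of all genes with an ICR value, and for 92.2% of the 793 protein-coding genes at 100 FPKM or more in ICR. S100a9, S100a8 and S100a4 had none, although they were among the most abundant of the family in ICR and held 70.7% of its summed ICR level. Among all genes without a gerbil value, S100a9 was the 3rd most abundant in ICR, S100a8 the 8th and S100a4 the 16th. No difference between the species can be given for them, and a missing match is not read as absence of the transcript.

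Of the 7 genes with both values, S100a10 was higher in gerbil and 6 were lower. Differences are log2(FPKM + 1) in gerbil minus the same in ICR. Folds between the libraries, here and below, are likewise ratios of FPKM + 1. At low levels they lie nearer to 1 than the ratio of the printed FPKM values. The median over the 7 genes was -1.21, against 0.87 over the 20089 measured symbols (both values listed and at least 1 FPKM in a library) and 0.30 over the 14054 that are protein-coding. At least 4-fold lower in gerbil were 2 of the 7 genes, S100a6 and S100a11, against 5.56% of all measured symbols. At least 4-fold higher was 0 of the 7, against 25.9%. Neither S100a6 nor S100a11 had a match with an expectation value of 0. Of protein-coding symbols matched at 0, 5.99% were lower and 6.10% higher by that size.

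The best-matched members were S100a10, S100a14 and S100a16, each matched with an expectation value of 0 and each with a gerbil value listed for no other gene. S100a10 was at 422 FPKM in ICR against 761 in gerbil, 1.80-fold higher in gerbil, but lower by 2.28 on the log2 scale when gerbil values were rescaled to ribosomal protein genes. S100a14 was at 554 FPKM in ICR against 436 in gerbil, 1.27-fold higher in ICR. S100a16 was at 620 FPKM in ICR against 332 in gerbil, 1.87-fold higher in ICR. As deposited, all 3 lay within 2-fold, and their summed level was 1596 FPKM in ICR and 1529 in gerbil, a ratio of 0.958. Rescaling all gerbil values to a reference set of genes lowered them each time, so these 3 genes could only move down in gerbil. S100a16 was then past 2-fold lower in gerbil (-1.15 with well-matched coding genes, -1.24 with housekeeping genes, -1.42 with the trimmed mean and -4.01 with ribosomal protein genes). S100a14 was at -3.46 with ribosomal protein genes. The order differed between the libraries, with S100a16 highest and S100a10 lowest in ICR and the reverse in gerbil. Their median difference was -0.34, beside 0.21 (SD 1.48 across genes) for the 11152 protein-coding symbols matched with an expectation value of 0. Of those symbols 6.10% exceeded 4-fold on the gerbil side and 5.99% on the ICR side.

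**Figure D2:**
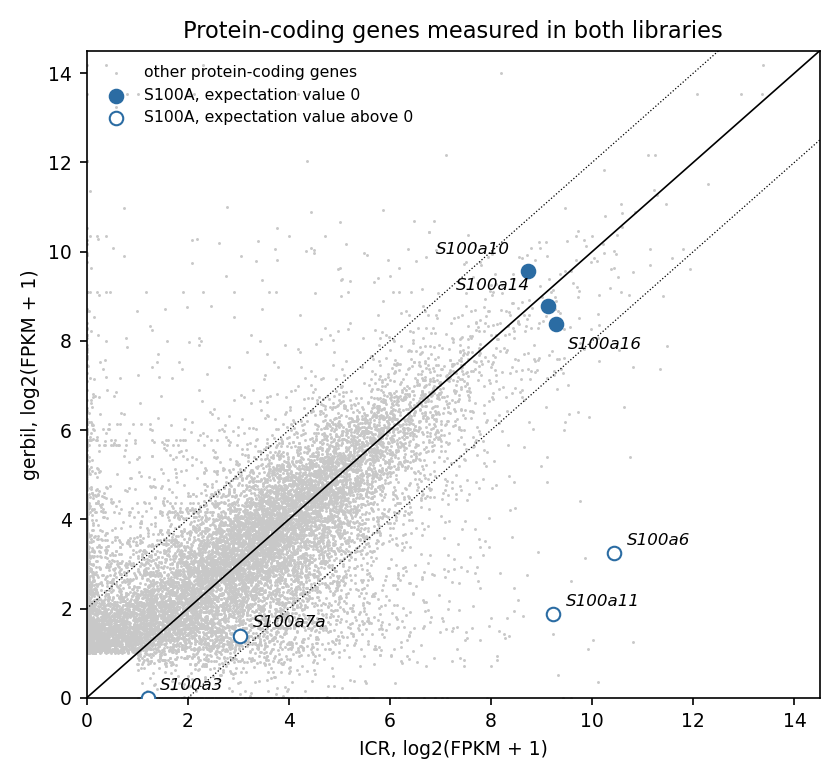
Levels in the ICR library (x axis) and the gerbil library (y axis) as log2(FPKM + 1) for protein-coding genes measured in both, with the 7 S100A genes that have both values marked; the solid line is equality and dotted lines are 4-fold. S100a10, S100a14 and S100a16 sit within 4-fold of equality, while S100a6 and S100a11 lie far below it at 8.44 and 2.66 FPKM in gerbil.

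S100a6 and S100a11 showed the widest gaps, on weak matches. S100a6 was at 1388 FPKM in ICR against 8.44 in gerbil, 147-fold lower in gerbil, with an expectation value of 4e-19. S100a11 was at 598 FPKM in ICR against 2.66 in gerbil, 164-fold lower, with an expectation value of 2e-20. Both gerbil values were also listed for other genes, 9 for S100a6 and 17 for S100a11, as low values with 2 decimals often are. None of the 9 genes that carried 8.44 FPKM was related to S100a6 in sequence. Of the 17 that carried 2.66 FPKM, 3 were related to S100a11: Gm12854 (99.0% identical to it over 297 bases), Gm5068, which GENCODE names S100a11-ps (93.7% over 303 bases), and Gm13640 (91.2% over 227 bases). Their expectation values were 1e-20, 2e-19 and 3e-16, so the match of Gm12854 was slightly better than that of S100a11. Whether the value of 2.66 FPKM belongs to a gerbil counterpart of S100a11 was not tested. Gm12854 was itself listed at 100 FPKM in ICR, so reads of S100a11 and this near copy may have been divided between them, and the ICR level of S100a11 is uncertain to that extent.

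Weak matches went with wide differences in both directions across the table. Of 639 protein-coding symbols matched with an expectation value above 1e-30, a limit set after the values were seen, 24.3% were lower in gerbil and 25.4% higher by 4-fold or more. These shares were 5.99% and 6.10% for symbols matched at 0. Among symbols whose mean over both libraries was at least 100 FPKM, 29 had a match above 1e-30, S100a6 and S100a11 included, and 19 of them were lower in gerbil and 8 higher by 4-fold or more. In the 620 such symbols matched at 0, 46 were lower and 104 higher by that size. A limit on the mean also keeps symbols that are high in a single library, as S100a6 and S100a11 were in ICR. It therefore favours wide gaps in each of these classes. S100a6 and S100a11 are themselves counted among the 19 lower ones, so these counts are no independent check on their values. The part of match strength in the low gerbil values of S100a6 and S100a11, -7.20 and -7.35 on the log2 scale, was not tested.

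Transcript length moved with the matches as well. The 3 S100A genes without a gerbil value have mouse transcripts of 486 bases (S100a8), 498 bases (S100a4) and 519 bases (S100a9), counted for the coding transcript with the longest reading frame. S100a11, with 511 bases, is the only listed member under 600 bases, and S100a10 (685), S100a14 (1059) and S100a16 (1127) are longer. Of 67 protein-coding genes under 600 bases and at 100 FPKM or more in ICR, 77.6% had a gerbil value and 19.4% a match with an expectation value of 0. From 1200 to 2399 bases, these shares were 95.3% and 83.2% of 316 genes. S100a6, at 731 bases, had a weak match all the same. An expectation value also depends on the length of the match, so the share at 0 is tied to transcript length in part by construction. The part of length in the missing values was not tested.

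**Figure D3:**
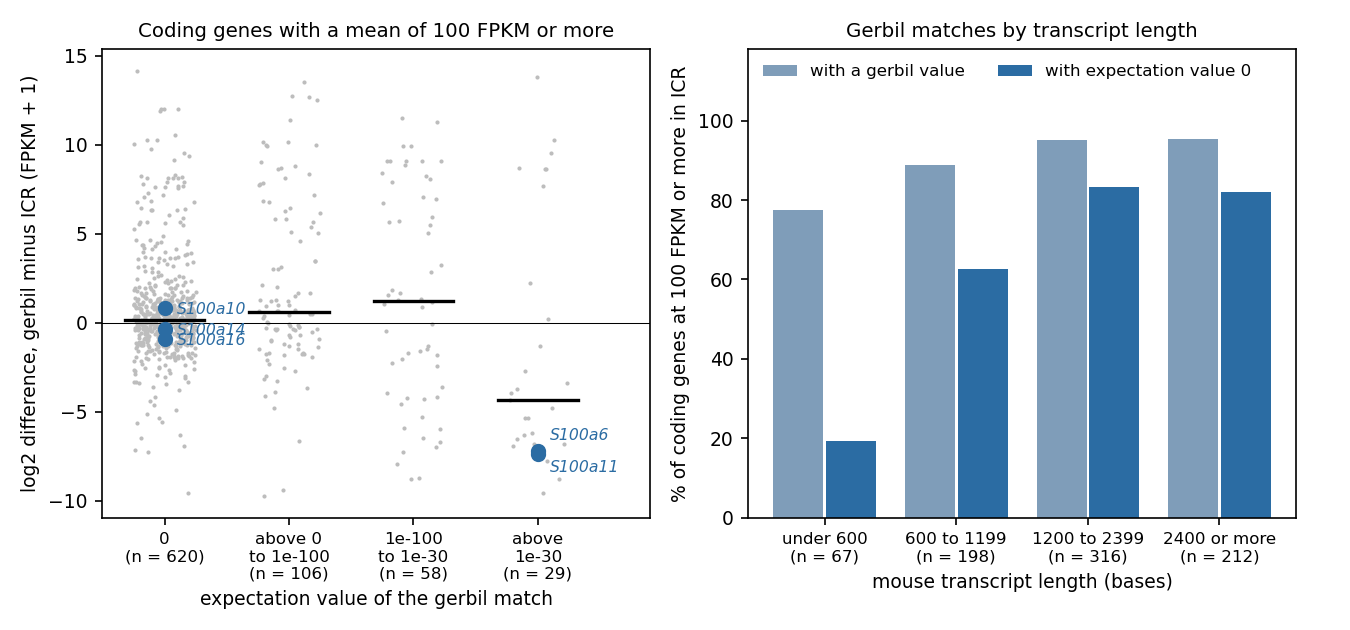
Left, log2 difference (gerbil minus ICR, FPKM + 1) of protein-coding genes with a mean over both libraries of at least 100 FPKM, by the expectation value of their gerbil match. The median of each class is a bar (0.16, 0.58, 1.22 and -4.36), and S100A genes are named. The weakest class spreads in both directions, and the limit also keeps genes that are high in 1 library only. Right, percent of coding genes at 100 FPKM or more in ICR with a gerbil value and with an expectation value of 0 by mouse transcript length, rising from 77.6% and 19.4% under 600 bases to 95.3% and 83.2% at 1200 to 2399 bases.

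The low pair stayed low in gerbil. S100a7a was at 7.22 FPKM in ICR against 1.63 in gerbil, 3.13-fold lower, on a match with an expectation value of 3e-179. That gerbil value was listed for 36 other genes. Of these, Tmc4 shared a stretch of 154 bases (90.3% identical) with the S100a7a transcript of 1280 bases. Short stretches of this kind were found in 430 mouse genes by a search with a cap on its hits. They do not make these genes relatives of S100a7a. S100a3 was at 1.31 FPKM in ICR, while the gerbil value was listed as 0 (2e-81), a value it shared with 562 other genes. Both were below the 4-fold size on the FPKM + 1 scale but past it with a pseudocount of 0.1 FPKM (-2.08 and -3.82). In the list of hair shaft and cuticle genes that S100a3 belongs with, 6 of 12 were listed at 0 in ICR and the summed level was 1.89 FPKM in ICR. In gerbil the distinct values summed to 6.49 FPKM, of which 5.03 was a single value carried by Krt81, Krt83 and Krt86. Padi3, whose human counterpart citrullinates S100A3, was at 0.673 FPKM in ICR, while its gerbil value was 0, and 7 of the hair genes had no gerbil value.

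The genes whose pair of levels lay closest to the well-matched members were taken by distance in log2(FPKM + 1) over both libraries, only 2 points a gene. Nearest to S100a16 was Blmh, bleomycin hydrolase, at 650 FPKM in ICR against 352 in gerbil (distance 0.108). Nearest to S100a14 were Rpl34-ps1 (distance 0.114) and Calr, the calcium-binding chaperone calreticulin, at 549 and 481 FPKM (0.142). Nearest to S100a10 were Gm6136 (0.196) and Rpl10a-ps1 (0.225).

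Other S100 genes were mostly low or without a match. Of 8 in the table, 4 were at 0 in ICR (S100a2, S100a5, S100g and S100z). S100a13, which takes part in the nonclassical release of signalling proteins, was at 87.6 FPKM in ICR and had no gerbil value. S100a1, known from heart and skeletal muscle, was at 29.9 FPKM in ICR against 4.54 in gerbil, 5.58-fold lower. S100b, a glial and Schwann cell gene, was at 0.288 FPKM in ICR against 9.01 in gerbil, 7.77-fold higher. S100z was at 0 and 8.80 FPKM, and S100pbp, which encodes a binder of S100P and is no S100 protein, at 3.03 and 1.66 FPKM. The gerbil values of S100a1, S100b, S100z and S100pbp were each shared with other genes.

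Receptors and adaptors through which released S100 proteins signal differed in both directions. Of 9 measured genes in this list 4 were higher and 5 lower in gerbil. Their median was -0.55, against 0.87 over all measured symbols and 0.30 over the protein-coding ones. By at least 4-fold, 3 were higher and 2 lower, against 25.9% and 5.56% of all measured symbols. Of protein-coding symbols matched with an expectation value of 0, 6.10% were higher and 5.99% lower by that size. The 3 became 2 under the trimmed mean, housekeeping and well-matched coding gene rescalings, where Cd36 fell under 4-fold, and 0 under the ribosomal protein rescaling, which left 5 at least 4-fold lower. Tlr4, the lipopolysaccharide receptor that calprotectin also engages, was at 9.70 FPKM in ICR against 99.6 in gerbil, 9.40-fold higher, and stayed higher under the 4 rescalings (lowest 0.20 on the log2 scale). The scavenger receptor Cd36, which binds calprotectin loaded with fatty acid, was at 10.8 FPKM in ICR against 54.5 in gerbil (4.69-fold higher), and lower after the ribosomal protein rescaling (-0.72). Irak4, the kinase downstream of Myd88, differed most, at 7.32 FPKM in ICR against 109 in gerbil, on a match with an expectation value of 5e-59.

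Myd88, the adaptor itself, was at 64.0 FPKM in ICR against 102 in gerbil (1.58-fold higher). Lower in gerbil were Cd14, Bsg, Ager, Ly96 and Tirap. Cd14, the most abundant in ICR, was at 1332 FPKM there and 784 in gerbil, and Bsg, basigin, a receptor reported for S100A9, at 611 and 418 FPKM. Ager was low in both libraries, at 2.46 FPKM in ICR against 0.880 in gerbil. Ly96, the coreceptor of Tlr4, was at 11.9 FPKM in ICR against 0.760 in gerbil, on a match of only 2e-07. Tirap, which links Myd88 to Tlr4, was at 5.29 FPKM in ICR against 0.430 in gerbil, 4.40-fold lower on the FPKM + 1 scale.

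Of 12 intracellular partners measured, 9 were higher and 3 lower in gerbil, with a median of 0.67. The median was 0.87 over all measured symbols and 0.21 over protein-coding symbols matched with an expectation value of 0, like these 12. At least 4-fold higher were 2 and lower 0. These shares were 25.9% and 5.56% of all measured symbols, and 6.10% and 5.99% of the protein-coding symbols matched at 0. The 2 became 1 under the housekeeping and well-matched coding gene rescalings and 0 under the others, and after the ribosomal protein rescaling 1 gene was higher and 11 lower, 7 of them at least 4-fold. Anxa2, the partner of S100A10 and the most abundant, was at 1528 FPKM in ICR against 2153 in gerbil, 1.41-fold higher, a direction that turned under the trimmed mean (-0.03) and the ribosomal protein (-2.64) rescalings. Anxa1, the partner of S100A11, was at 700 FPKM in ICR against 760 in gerbil. Anxa6 (60.8 and 57.9 FPKM) and Ahnak (85.2 and 74.1 FPKM), the scaffold protein that the S100A10 and annexin A2 complex binds, were also close to level.

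For the partner genes of S100a6 and S100a4 no gap like that of S100a6 was seen. Cacybp, the calcyclin-binding protein, was at 31.1 FPKM in ICR against 19.9 in gerbil. Myh9, the heavy chain of nonmuscle myosin that S100A4 binds, was at 99.2 FPKM in ICR against 440 in gerbil, a 4.40-fold difference. Anxa11, an annexin that binds S100A6, was 5.28-fold higher, at 18.7 and 103 FPKM. Under the ribosomal protein rescaling Myh9 (-0.98) and Anxa11 (-0.63) were lower in gerbil. The peptidylarginine deiminase Padi1 was low, at 0.510 and 3.24 FPKM.

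**Figure D4:**
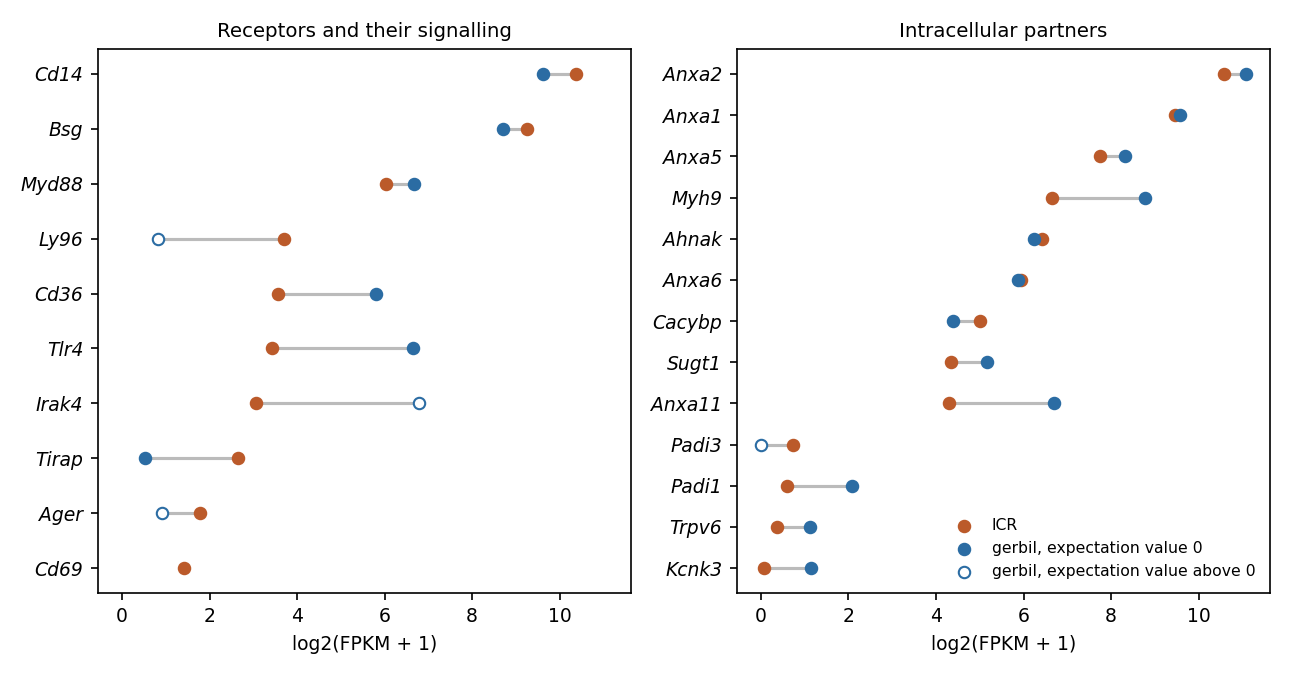
Levels as log2(FPKM + 1) of receptors and their signalling genes (left) and of intracellular partners (right) in the ICR and gerbil libraries, 1 point per gene and library, joined by a line. Tlr4, at 9.70 and 99.6 FPKM, and Irak4 show wide gaps, while Anxa1 at 700 and 760 FPKM is close to level; Cd69 has no gerbil value.

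Markers of the cells that carry S100A8 and S100A9 had values in both libraries, some of them under 1 FPKM. Of the 14 neutrophil genes 4 had no gerbil value (Retnlg, Ngp, Ltf and Mpo), and the other 10 summed to 500.1 FPKM in ICR and 687 in gerbil. None was listed at 0 in either library, but Elane (0.067) and Mpo (0.220) in ICR and Ly6g (0.80) in gerbil were under 1 FPKM. The largest gerbil values in that sum were those of Il1r2 and Fpr1 (141 FPKM, against 29.5 in ICR). Of the 10 measured, 5 were higher and 5 lower, with a median of 0.26, and Csf3r was among the lower ones (55.1 FPKM in ICR against 15.7 in gerbil). The median over all measured symbols was 0.87, and over the protein-coding ones 0.30. The receptor Cxcr2 was at 67.0 FPKM in ICR against 64.0 in gerbil, and Il1r2, the decoy receptor for interleukin-1, at 154 and 362 FPKM. Retnlg was the most abundant in ICR, at 157 FPKM, and Lcn2 the most different, 18.1-fold lower in gerbil (132 and 6.38 FPKM). Of 7 monocyte and macrophage genes, 4 were measured, 1 higher and 3 lower (median -0.75), and Lyz2 (1717 FPKM in ICR), Cd68 and Fcgr1 had no gerbil value.

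Epidermal genes were abundant in libraries labelled dermis. The 8 keratinocyte genes summed to 10960 FPKM in ICR and 34214 in gerbil, with 4 higher and 4 lower in gerbil (median 0.25). The gerbil sum includes Krt14, at 18471 FPKM in gerbil and listed at 0 in ICR, and Krt5, at 11793 and 4284 FPKM. Other genes carried the same gerbil values. Krt14, among the 4 higher, was at 0 in an ICR library where Krt5 and Perp (3052 FPKM) were abundant. The sums were therefore not read as a difference in keratinocytes. The 8 differentiated keratinocyte genes summed to 11337 and 4746 FPKM, with 2 higher and 6 lower (median -1.94). The 8 fibroblast genes summed to 1819 and 1490 FPKM, with 4 higher and 4 lower (median -0.14), and Vim, at 638 and 0.430 FPKM, rested on a match of 9e-65. Beside these medians stand 0.87 over all measured symbols and 0.30 over the protein-coding ones. The part of cell composition in the S100A levels was not tested.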

How the data were processed

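The authors deposited a table with 1 FPKM value per mouse gene for ICR and, for matched genes, 1 gerbil FPKM value with an expectation value, per the file headers. The expectation values (other numeric scores of the match) were deposited without the search program, which is not given in the sources used here. RSEM 1.2.19, STAR 2.4.0b, CASAVA, Cufflinks 2.2.1 and the build GRCm38.p2 are named in the submitters' processing notes, with no step assigned.

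From these values, 1 entry per symbol was kept (highest mean), a pseudocount of 1 FPKM was added, and genes under 1 FPKM in both libraries were left out. Folds between the libraries are ratios of FPKM + 1, and differences of at least 4-fold were counted. With 1 library per species no test was run. The arithmetic was tested on simulated data.

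The members and gene lists were chosen with earlier results of these data known. Named were all 10 members, other S100 genes present, and from each list the 2 most abundant in ICR and the most different, apart from keratinocyte, hair, fibroblast and macrophage lists, given mainly as sums. Further list genes were named after their values were seen. Krt85 and Adgre1 were not analysed here. Alternatives were pseudocounts of 0.1 and 5, floors, match limits, and rescaling of gerbil by a trimmed mean of log ratios or by housekeeping genes. Rescaling to well-matched coding genes or ribosomal protein genes was added later.

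Coding transcripts and gene classes came from GENCODE M21 (GRCm38). Residues translated from them were aligned with MAFFT 7.526, and related transcripts were found with blastn 2.17.0 (expectation value up to 1e-05, at least 50 bases). Python 3.11.15, pandas 2.3.3, numpy 2.4.6 and biopython 1.88 were used.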

Additional observations from a re-analysis of the deposited data

How the results depend on the processing

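No paired analysis was possible because gerbil and ICR are single libraries, which also prevents leaving any out. The count of genes at least 4-fold different was 2 (both lower in gerbil) and stayed at 2 with a pseudocount of 5, without a floor or with one of 5 FPKM, and under the trimmed mean, housekeeping and well-matched coding gene rescalings. It rose to 4 with a pseudocount of 0.1 and with a 2-fold size rule, and to 6 under the ribosomal protein rescaling, all lower in gerbil. Since every rescaling lowered the gerbil values, the count could not fall under them. It fell to 0 with a match limit of 1e-20 (5 genes), with gerbil values listed for no other gene (3 genes) and with an expectation value of 0 (3 genes), since these settings leave out S100a6 and S100a11 by construction. S100a11, at 2e-20, lies just outside the first of these limits.

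The median difference was -1.21, which is the value of S100a3, a gene near the floor. The median was -2.08 and -0.88 with pseudocounts of 0.1 and 5, and -1.27 with a floor of 5 FPKM. It was -1.42 under the trimmed mean, -1.24 under the housekeeping and -3.46 under the ribosomal protein rescaling. It was -0.90 with the match limit of 1e-20, and -0.34 both for unshared gerbil values and for an expectation value of 0. Every rescaling lowered the gerbil values, so S100a10, the sole member higher in gerbil, was the only one that could reverse. It turned to -2.28 under the ribosomal protein rescaling, and the cause was not tested. That rescaling took 3.14 off gerbil on the log2 scale and moved the median of all measured symbols from 0.87 to -1.13; the others took off 0.52 (trimmed mean), 0.34 (housekeeping) and 0.25 (well-matched coding genes). The ribosomal protein genes themselves differed widely, for example by -0.48 for Rps3, 0.28 for Rplp0, 6.33 for Rpl3 and 10.2 for Rps12. Their median of 3.14 is thus an uncertain scale. Gerbil values were listed for 7 members, 6 of them above 0. Depth is unknown, so no limit for the value of 0 can be given.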

Other observations

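Genes that induce or drive S100a8, S100a9 and S100a7a in keratinocytes and myeloid cells did not move together. Of 11 measured, 4 were higher and 7 lower in gerbil, with a median of -0.55. By at least 4-fold, 1 was higher and 4 lower, which became 0 and 9 under the ribosomal protein rescaling. As deposited, these shares were 25.9% and 5.56% of all measured symbols. They were 6.10% and 5.99% of protein-coding symbols matched with an expectation value of 0. Il1b, the most abundant, was at 1222 FPKM in ICR against 1781 in gerbil. Cebpb, a transcription factor of the acute response, was 19.7-fold lower in gerbil (68.2 and 2.51 FPKM, expectation value 1e-77), and Cebpa, its myeloid relative, was 14.3-fold lower (100 and 6.07 FPKM, 3e-174). Other genes carried the same gerbil values as both. At least 4-fold lower were also Tnf (19.5-fold) and the receptor chain Il17rc (5.18-fold, 75.8 and 13.8 FPKM). The gene at least 4-fold higher was Il6, 14.8-fold, and it was higher under the 4 rescalings as well. The cytokines Il17a and Il22, inducers of these S100A genes in keratinocytes, were at 0.046 FPKM each in ICR and had no gerbil value, and of the other receptor chains Il17ra was at 17.5 and 45.7 FPKM and Il22ra1 at 15.5 and 10.3 FPKM.

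The RefSeq annotation of the gerbil assembly Bangor_MerUng_6.1 names 5 of the 10 genes by the same symbol. S100a8, S100a14 and S100a16 lie on 1 gerbil chromosome, while S100a10 and S100a11 lie on another with 0 protein-coding genes between them, although all are on a single chromosome in mouse. S100a8, which had no gerbil value in the table, is thus a named gene of that assembly. The other 5 symbols were not matched, and no reading is drawn from that.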
